A study of Mus musculus with 6 samples.

Results

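The inhibitor of DNA binding genes Id1, Id2, Id3 and Id4 and 6 feedback genes of bone morphogenetic protein (BMP) and transforming growth factor beta (TGF-beta) signalling (Smad6, Smad7, Smad9, Bambi, Skil and Smurf1) were followed in N2A-A5 cells. N2A (Neuro-2a) is a mouse neuroblastoma line, and the labels describe N2A-A5 as acceptor cells. These 10 genes, of 40413 in the count table, were chosen by name from values of the comparison described here, so their own differences are given as a description without a test. In 3 libraries the RNA came from cells after 96 h in differentiation medium, which held 1% fetal bovine serum and 10 µM retinoic acid and no blasticidin. It was set against 3 libraries of undifferentiated cells (0 h) in 10% serum with 10 µg/mL blasticidin, to ask how the programme of the cells differs between these states. Retinoic acid, serum, blasticidin and time in culture changed together and cannot be told apart, and all libraries come from 1 line.

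BMP and TGF-beta ligands bind pairs of serine/threonine kinase receptors, which phosphorylate receptor-regulated Smads that enter the nucleus with Smad4. BMP-activated Smads directly raise transcription of ID genes and of several of the pathway's own brakes, so these genes are widely used as a readout of the pathway. ID proteins have a helix-loop-helix domain but no DNA-binding region, and they hold E proteins such as Tcf3, Tcf4 and Tcf12 away from the proneural factors that need them as partners. In the nervous system ID proteins are known for keeping progenitors undifferentiated.

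The libraries held 16.8 M to 19.0 M counts at 96 h and 17.6 M to 20.9 M at 0 h (M for mega). Levels are depth-scaled counts (CPM) on library sizes scaled with TMM factors, which align the bulk of genes between libraries. The predicted gene Gm26917 took 28.7% to 31.7% of counts at 96 h and 18.7% to 22.7% at 0 h. Scaling by library size alone lowered the median log2 difference of all genes by 0.25 (a shift of -0.25), whereas library size after removal of Gm26917 and the mitochondrially encoded genes moved it by 0.005. Of 12 markers of sympathetic neuroblasts 10 had a group mean of at least 1 CPM, and 9 of the 11 tested fell (edgeR adjusted p under 0.05, median log2 fold change -0.47). Of all genes tested, 28.8% fell by the same test. The sum of the markers ran from 744 to 780 CPM at 96 h and from 1197 to 1245 CPM at 0 h. It was thus lower at 96 h, as were the sums of the ID and of the feedback genes. The feedback sum averaged 172 CPM at 96 h and 358 CPM at 0 h. Skil held the largest part of it, with 96.0 CPM at 96 h and 162 CPM at 0 h. Smurf1 held 45.3 CPM at 96 h and 40.1 CPM at 0 h. Dbh, the enzyme that makes noradrenaline, had a log2 fold change of -3.18 ± 0.36, Hand2 averaged 311 ± 6.63 CPM at 96 h and 381 ± 12.6 CPM at 0 h (SD, n = 3 each), and Th averaged 0.699 CPM at 96 h and 0.775 CPM at 0 h. Gata2 and Tbx2, described below among the pathway genes, belong to this list too. Summed markers ran from 17.8 to 21.0 CPM at 96 h and from 6.34 to 6.66 CPM at 0 h for 10 fibroblast genes, with Col3a1 and Lum at 0. Pdgfra averaged 7.96 CPM at 96 h and 2.58 CPM at 0 h, and Pdgfrb 7.33 CPM at 96 h and 1.69 CPM at 0 h. Dcn averaged 2.55 CPM at 96 h and 1.28 CPM at 0 h. Of the 4 fibroblast genes tested, 3 rose and 0 fell with edgeR. For 6 smooth muscle genes the sums ran from 1.73 to 3.39 CPM at 96 h and 7.39 to 8.88 CPM at 0 h. Most of that fall lay in Acta2, with a mean of 0.377 CPM at 96 h and 6.72 CPM at 0 h. Des went the other way, with 1.85 CPM at 96 h and 0.709 CPM at 0 h, and Cnn1 stayed near 0. For 8 glial genes the sums ran from 9.30 to 10.7 CPM at 96 h and 2.93 to 5.15 CPM at 0 h. Erbb3 held most of them, with a mean of 8.28 CPM at 96 h and 3.22 CPM at 0 h. Gfap was lower at 96 h (3 counts, against 20 at 0 h), and Fabp7 was at 0. Endothelial markers summed to 1.93 to 4.15 CPM at 96 h and 2.01 to 3.15 CPM at 0 h (7 genes, with Emcn and Cldn5 at 0), and macrophage markers to at most 0.334 CPM in any library (6 genes, Aif1 at 0). The part of the markers of any of these lists in the results below was not tested.

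All 4 ID genes were lower at 96 h, and 9 of the 10 genes had every 96 h library below every 0 h library. Of all 13705 genes that passed the low-count filter, 31.7% showed that pattern. At a log2 difference of -1 or below stood 8 of the 10, while 3.77% of all tested genes were lower by at least 2-fold and past the edgeR test. Since the genes were picked with these values known, nothing is read from either count. All 10 passed the filter, and their counts ran from 21 to 3691 per library. In bulk RNA, fewer cells with a transcript and less of it per cell cannot be told apart.

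Id1, the family member most used as a BMP readout, had 13.3, 13.5 and 13.0 CPM at 96 h, against 29.2, 30.8 and 29.6 CPM at 0 h. Its libraries lay close together within each state and did not overlap between them, and the log2 difference was -1.17 ± 0.08 (SE). Id2, which is also known for binding the retinoblastoma protein, had 6.79, 6.78 and 7.68 CPM at 96 h and 26.0, 23.0 and 24.8 CPM at 0 h. That is a level 3.46-fold lower at 96 h, with a log2 difference of -1.79 ± 0.10 (SE).

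Id3 had the largest difference of the family. Its 96 h libraries held 6.39, 3.68 and 6.68 CPM, against 32.5, 32.8 and 33.7 CPM at 0 h, a level 5.91-fold lower at 96 h (log2 difference -2.56 ± 0.15, SE). The library of 96 h replicate 2 was low for Id3 beside the other two. The log2 difference was -2.34 without it, and the spread of Id3 at 96 h was a coefficient of variation of 29.6%, where counting alone would give 10.4%. Id4, which in other cell types can oppose its relatives, was the least abundant of the 10. It had 2.26, 1.23 and 1.95 CPM at 96 h and 4.23, 3.02 and 4.81 CPM at 0 h, and its log2 difference of -1.15 had the widest error (0.29, SE). An antisense transcript annotated across Id4, A330033J07Rik, had 0 counts at 96 h and 1 at 0 h.

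The makeup of the ID counts differed as well as their sum (CPM, not scaled by length). The 4 genes summed to 27.7 ± 2.22 CPM at 96 h and 91.5 ± 1.71 CPM at 0 h (SD, n = 3 each). Id1 made up 48.0% ± 4.92 of that sum at 96 h and 32.6% ± 1.49 at 0 h, and Id3 made up 19.9% ± 4.58 at 96 h and 36.1% ± 0.650 at 0 h. Libraries of the states did not overlap for either share. The share of Id2 was 25.6% ± 1.71 at 96 h and 26.9% ± 1.31 at 0 h, with overlapping libraries, and that of Id4 was 6.47% ± 1.5 at 96 h and 4.39% ± 0.919 at 0 h, also overlapping.

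**Figure D1:**
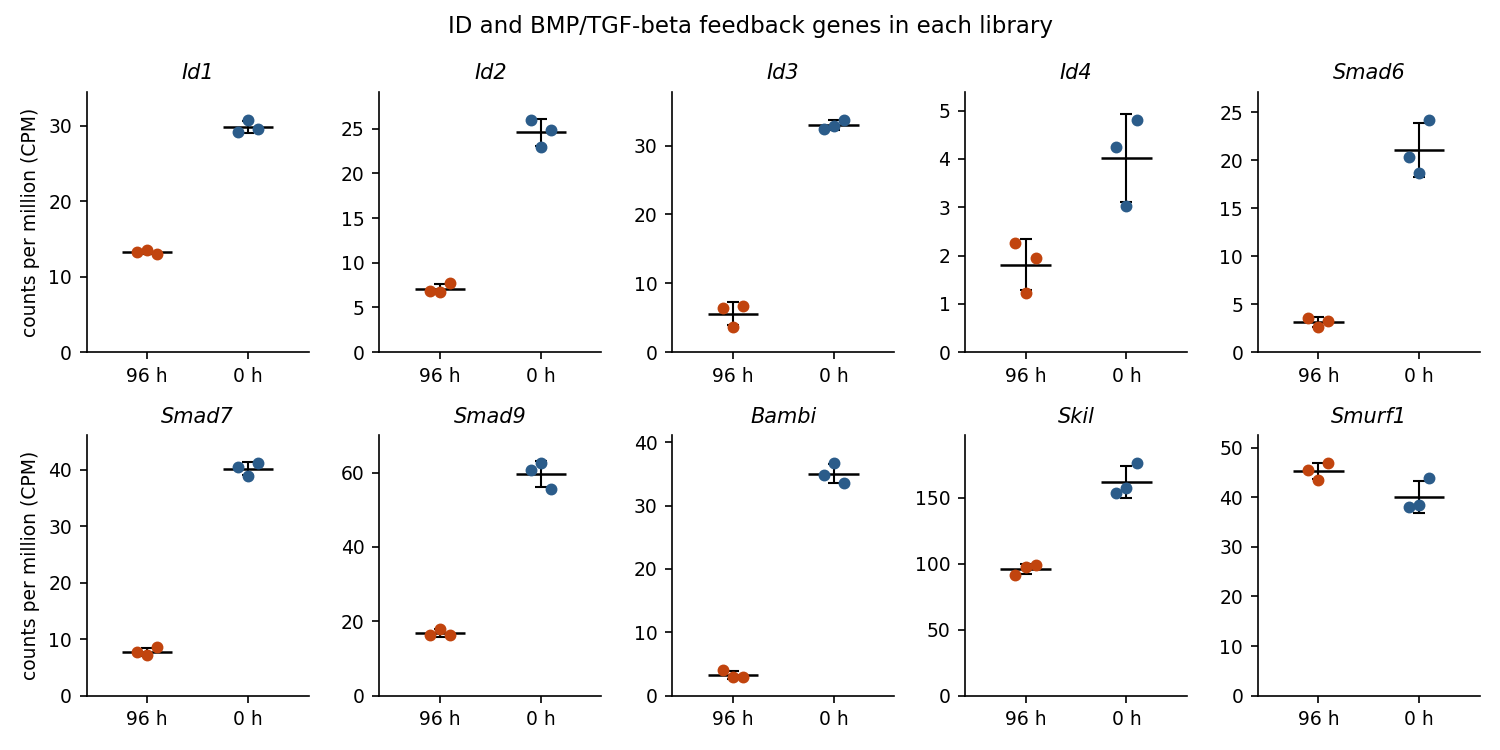
CPM (linear axis from 0) of the 10 genes in each library, with 96 h at the left and 0 h at the right of each panel; points are libraries, and the bar and whiskers are the mean ± SD (n = 3). The 96 h points lie below the 0 h points in every panel except Smurf1, for example at 2.90 to 4.06 CPM against 33.6 to 36.7 CPM for Bambi.

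Promoter windows of ID genes are shown because the family is known to be under the control of Smads. Whether Smads had a part in the lower levels of ID genes at 96 h was not tested. Windows of 300 bases, from 250 before to 50 after the gene start, came from RefSeq (GRCm38.p6), which matched 6 of the 10 genes: Id2, Id3, Id4, Smad6, Smad9 and Smurf1. Both strands were searched for GGCGCC, the core of GC-rich BMP response elements, for GTCTAGAC, the palindromic Smad binding element, for CAGACA, an extended Smad box, and for TGACGTCA, the cyclic AMP response element. Of all 32851 windows, 11.9% hold GGCGCC, 0.213% GTCTAGAC, 21.0% CAGACA and 1.79% TGACGTCA. None of these matches overlapped another in the windows of the genes described here. Capitals mark the matches. The windows lie at chr12:25096043-25096342 (minus strand) for Id2, chr4:136143572-136143871 (plus strand) for Id3 and chr13:48260866-48261165 (plus strand) for Id4.
Id2: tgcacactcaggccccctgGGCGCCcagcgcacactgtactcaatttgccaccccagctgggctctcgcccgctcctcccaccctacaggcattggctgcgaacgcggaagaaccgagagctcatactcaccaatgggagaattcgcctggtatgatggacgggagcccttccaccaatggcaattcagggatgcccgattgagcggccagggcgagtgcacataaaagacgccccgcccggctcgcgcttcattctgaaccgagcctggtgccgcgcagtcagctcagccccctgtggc
Id3: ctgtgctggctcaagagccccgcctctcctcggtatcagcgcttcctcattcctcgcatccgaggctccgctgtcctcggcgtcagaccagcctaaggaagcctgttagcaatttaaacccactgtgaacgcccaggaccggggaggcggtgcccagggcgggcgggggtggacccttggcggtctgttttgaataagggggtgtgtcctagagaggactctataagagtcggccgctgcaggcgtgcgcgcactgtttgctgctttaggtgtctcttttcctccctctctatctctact
Id4: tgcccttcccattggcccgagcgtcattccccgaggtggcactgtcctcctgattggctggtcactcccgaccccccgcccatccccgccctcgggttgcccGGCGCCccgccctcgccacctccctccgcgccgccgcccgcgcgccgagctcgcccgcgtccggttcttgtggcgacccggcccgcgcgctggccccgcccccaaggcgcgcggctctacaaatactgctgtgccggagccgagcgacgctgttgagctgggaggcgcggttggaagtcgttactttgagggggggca

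The window of Id2 holds 1 GGCGCC, whose first base lies 231 bases before the gene start, and that of Id4 holds 1 at 148 bases before it. The window of Id3, the ID gene with the largest difference, holds none of the 4 motifs, which says only that these letters are not in these 300 bases. All 3 windows are rich in G and C, at 63.3%, 60.0% and 73.3% for Id2, Id3 and Id4, where the median window has 52.7%. They hold 21, 19 and 39 CpG dinucleotides, against a median of 7.

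The inhibitory Smads are the feedback genes of the pathway in the narrow sense. Smad6, which mainly restrains BMP receptors, had 3.53, 2.57 and 3.28 CPM at 96 h, against 20.3, 18.7 and 24.2 CPM at 0 h, a level 6.73-fold lower at 96 h (log2 difference -2.75 ± 0.15, SE). Smad7, which blocks both BMP and TGF-beta receptors, had 7.66, 7.19 and 8.57 CPM at 96 h and 40.5, 38.9 and 41.1 CPM at 0 h. It was 5.13-fold lower at 96 h, with a log2 difference of -2.36 ± 0.09 (SE). Together the inhibitory Smads summed to 10.9 ± 1.07 CPM at 96 h and 61.2 ± 3.88 CPM at 0 h (SD, n = 3 each).

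Bambi, a receptor-like protein without a kinase domain that occupies receptor complexes, had the largest difference of the 10 genes. Its libraries held 4.06, 2.98 and 2.90 CPM at 96 h and 34.8, 36.7 and 33.6 CPM at 0 h, a level 10.6-fold lower at 96 h (log2 difference -3.41 ± 0.12, SE). Smad9 encodes Smad8, a receptor-regulated Smad of the BMP branch that is itself a BMP target and activates transcription weakly. It had 16.3, 18.0 and 16.2 CPM at 96 h and 60.7, 62.5 and 55.6 CPM at 0 h, with a log2 difference of -1.82 ± 0.08 (SE).

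The windows of Smad6 (chr9:64022010-64022309, minus strand) and Smad9 (chr3:54755332-54755631, plus strand) are shown for their Smad-related matches, again in capitals and on GRCm38.p6.
Smad6: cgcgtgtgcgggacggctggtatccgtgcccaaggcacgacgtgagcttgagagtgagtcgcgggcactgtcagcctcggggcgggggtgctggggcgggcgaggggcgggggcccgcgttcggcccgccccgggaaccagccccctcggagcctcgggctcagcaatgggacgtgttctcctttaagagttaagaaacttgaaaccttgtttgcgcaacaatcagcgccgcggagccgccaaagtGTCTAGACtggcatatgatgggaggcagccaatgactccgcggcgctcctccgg
Smad9: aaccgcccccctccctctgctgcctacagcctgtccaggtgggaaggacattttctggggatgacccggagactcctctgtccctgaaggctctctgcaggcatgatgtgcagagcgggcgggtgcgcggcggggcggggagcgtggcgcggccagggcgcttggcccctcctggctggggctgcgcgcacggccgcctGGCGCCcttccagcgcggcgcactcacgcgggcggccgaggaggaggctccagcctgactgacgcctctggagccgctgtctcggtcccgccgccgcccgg

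The window of Smad6 holds 1 GTCTAGAC, the motif present in 0.213% of all windows, and its first base lies 4 bases before the gene start, so the match spans the start. The window of Smad9 holds 1 GGCGCC at 51 bases before the start. Smurf1, the gene whose libraries overlapped, has neither motif in its window and holds 1 CAGACA on the opposite strand, 193 bases before the start. G and C made up 66.3%, 73.7% and 76.3% of the windows of Smad6, Smad9 and Smurf1, where the median window has 52.7%. The motif shares of all windows are not matched for G and C, so no excess of a motif is read from them. These matches describe letters and do not show binding.

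Skil and Smurf1 had smaller differences than the other 8 genes. Skil encodes SnoN, a nuclear co-repressor that binds Smad2, Smad3 and Smad4 and is induced by TGF-beta. It had 91.4, 97.7 and 99.0 CPM at 96 h and 153, 157 and 176 CPM at 0 h, with a log2 difference of -0.76 ± 0.06 (SE) and no overlap. Smurf1 encodes a ubiquitin ligase that marks Smad1, Smad5 and, through Smad7, the receptors for degradation. It had 45.5, 43.5 and 46.8 CPM at 96 h and 38.0, 38.5 and 43.8 CPM at 0 h. Its highest 0 h library lay above its lowest 96 h library. The log2 difference of Smurf1 was 0.18 ± 0.07 (SE) and turned to -0.07 with scaling by library size only, so no direction is given for it.

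**Figure D2:**
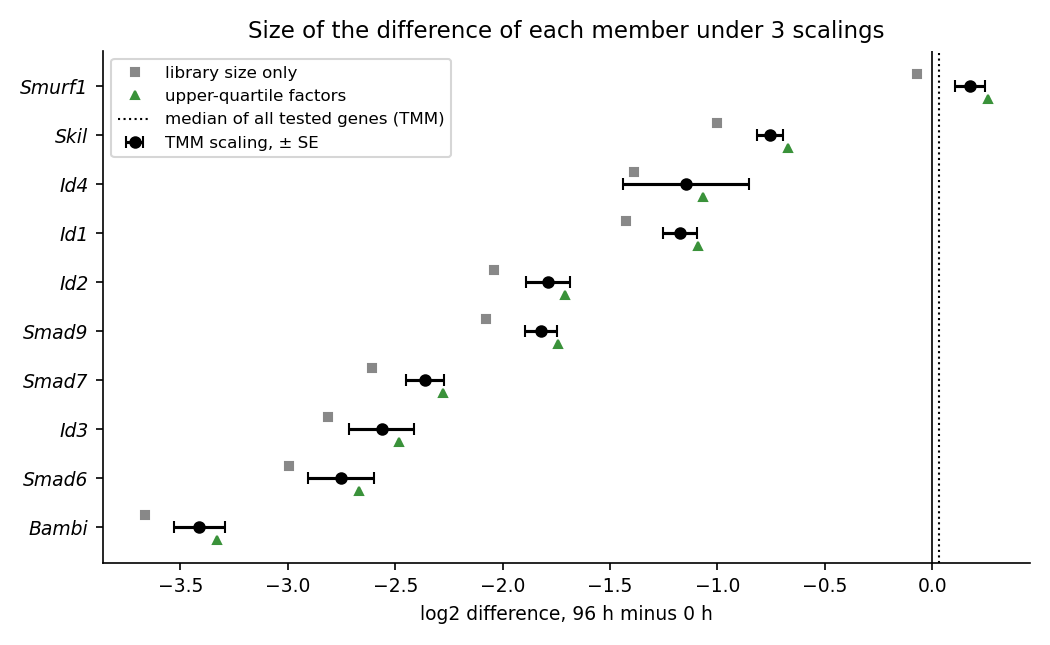
Log2 difference (96 h minus 0 h) of each gene with TMM scaling (circles, with whiskers of 1 SE), with library size only (squares) and with upper-quartile factors (triangles); the dotted line is the median of all tested genes at 0.03. The genes keep 1 order under all 3 scalings, and of the 10 Smurf1 alone lies on both sides of 0, from -0.07 to 0.26.

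Across genes, levels were compared per kb of merged exons (CPM per kb, exon lengths from GENCODE M21 on GRCm38, all annotated isoforms merged). At 96 h the order was Id1 (11.4 CPM per kb), Skil (9.90), Smurf1 (7.14), Smad9 (3.14), Id3 (3.12), Id2 (2.91), Smad7 (1.73), Smad6 (0.976), Bambi (0.653) and Id4 (0.471). At 0 h it was Id1 (25.7 CPM per kb), Id3 (18.4), Skil (16.7), Smad9 (11.1), Id2 (10.1), Smad7 (8.89), Bambi (6.90), Smad6 (6.57), Smurf1 (6.33) and Id4 (1.04). Neighbours whose libraries overlapped were Smad9, Id3 and Id2 as well as Bambi and Id4 at 96 h, and Id3 and Skil, Smad9 and Id2, and Bambi, Smad6 and Smurf1 at 0 h. Among the 12477 tested genes with a length, Bambi stood at percentile 13.4 at 96 h and 65.9 at 0 h. Smad6 stood at percentile 18.8 at 96 h and 64.5 at 0 h. Id1 was at percentile 79.2 at 96 h, against 91.1 at 0 h.

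**Figure D3:**
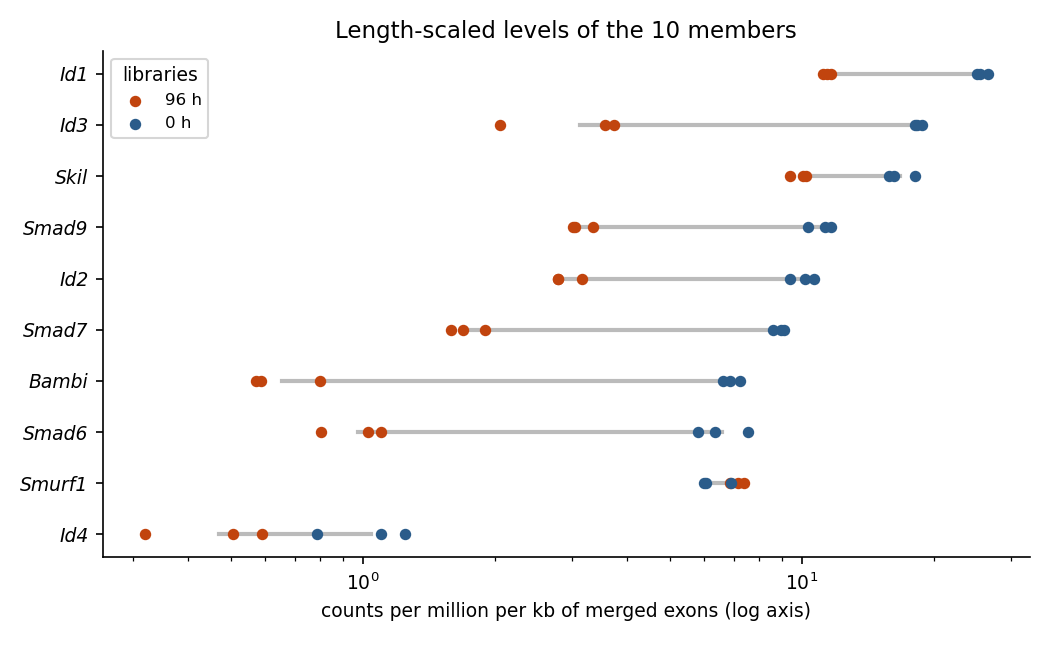
Level of each gene in CPM per kb of merged exons (log axis); points are the 3 libraries of 96 h and of 0 h, and grey lines join the group means. Smurf1, at 7.14 CPM per kb at 96 h and 6.33 at 0 h, had the shortest line, and Bambi, at 0.653 at 96 h and 6.90 at 0 h, the longest.

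The rest of the pathway was covered by 7 lists with 170 genes, of which 102 passed the filter. Outside the 10 genes, 52 pathway genes fell and 21 rose at an edgeR adjusted p under 0.05, with 29 not past the test. Over all genes tested, 28.8% were lower and 28.7% higher. The pathway genes had a median log2 fold change of -0.27, against 0.03 for all tested genes. These lists were chosen with earlier results of these data known. Nothing is therefore read from their counts or medians, here or list by list below, against those of all genes. With library size only, 61 fell and 15 rose, but that scaling also shifted all genes, of which 5849 fell and 2409 rose.

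BMP ligands were scarce. The 8 genes Bmp2 to Bmp8b had 65 counts in all at 96 h and 58 at 0 h, with at most 25 for 1 gene in either state, and none passed the filter. Of 27 ligand genes 8 were tested, with 2 higher, 2 lower and a median of 0.45 (scaling by library size alone gave 1 higher and 3 lower). Gdf15, a distant family member known as a stress-induced cytokine, rose to 16.1 ± 0.845 CPM at 96 h, against 2.75 ± 1.03 CPM at 0 h (log2 fold change 2.56 ± 0.21, edgeR adjusted p = 1.69e-07). Tgfb2 fell to 28.6 ± 3.92 CPM at 96 h, against 70.9 ± 1.92 CPM at 0 h (-1.31 ± 0.08, edgeR adjusted p = 1.54e-08). Tgfb3 rose (0.60 ± 0.18), but did not pass when library size was the sole scaling (adjusted p = 0.118), and Gdf11 fell (-0.32 ± 0.07).

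The BMP receptor genes Bmpr2 and Bmpr1a were among the lower genes. Bmpr2, a type II BMP receptor, fell to 156 ± 1.85 CPM at 96 h, against 264 ± 8.43 CPM at 0 h (log2 fold change -0.75 ± 0.04, edgeR adjusted p = 7.52e-09). Bmpr1a, a type I BMP receptor, fell to 69.5 ± 3.02 CPM at 96 h, against 113 ± 4.20 CPM at 0 h (-0.70 ± 0.06, edgeR adjusted p = 1.28e-07). Bmpr1b, with 4 counts at 96 h and 9 at 0 h, was too low to be tested. Of 13 tested receptors and co-receptors 6 fell and 1 rose, the activin type II receptor Acvr2a (0.51 ± 0.09), and the median was -0.13.

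Secreted regulators divided into 5 lower and 4 higher of 12 tested, with a median of -0.01. Leaving out single libraries gave 5 to 6 lower and 3 to 6 higher, with the 6 higher when 0 h replicate 3 was left out. The follistatin-like gene Fstl1 fell (-0.95 ± 0.05) and so did Bmper (-1.63 ± 0.18), which encodes a BMP-binding protein. The latent TGF-beta binding proteins Ltbp3 and Ltbp4, which hold TGF-beta in the extracellular matrix, rose. Ltbp3 averaged 113 ± 5.01 CPM at 96 h and 44.1 ± 1.97 CPM at 0 h (log2 fold change 1.36 ± 0.06, edgeR adjusted p = 4.62e-10), and Ltbp4 had a log2 fold change of 1.01 ± 0.05. Noggin (Nog) had 3 counts at 96 h and 2 at 0 h.

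Smads did not move as one. Smad3, the TGF-beta and activin effector, rose 5.38-fold to 51.9 ± 1.71 CPM at 96 h, against 9.68 ± 0.993 CPM at 0 h (log2 fold change 2.43 ± 0.08, edgeR adjusted p = 6.66e-11). Its close relative Smad2 fell (-0.54 ± 0.05). Of the other BMP Smads, Smad5 fell (-0.32 ± 0.06) and Smad1 rose (0.26 ± 0.07). The rise of Smad1 was lost with library size only (0.01, adjusted p = 0.943), without 96 h replicate 3 (0.0581) and without 0 h replicate 2 (0.0567). The common partner Smad4 had a small fall (-0.16 ± 0.06, edgeR adjusted p = 0.0430) that was lost under 10 of 16 other settings. Without one of 96 h replicate 2, 96 h replicate 3, 0 h replicate 2 and 0 h replicate 3 its adjusted p ran from 0.0513 to 0.156, and with the replicate block it was 0.0659. The list of Smads and nuclear cofactors held 11 lower and 6 higher of 23 tested, with a median of -0.12 (scaling by library size alone gave 13 lower and 4 higher). The co-repressor Ski, the relative of Skil, fell (-0.82 ± 0.05), as did the co-activator Ep300 (-0.63 ± 0.05), and the zinc finger repressor Zeb1 rose (0.56 ± 0.07).

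Among 18 ubiquitin ligases, deubiquitinases, phosphatases and other modulators of receptors or Smads, 11 fell and 4 rose (13 and 2 with library size only), with a median of -0.29. The ubiquitin ligase Wwp2 fell (-0.85 ± 0.07) and so did Fkbp1a (-0.61 ± 0.06), which encodes the immunophilin that binds type I receptors. Usp11, a deubiquitinase, rose 3.85-fold (log2 fold change 1.95 ± 0.10, edgeR adjusted p = 3.23e-09). The Smad phosphatase gene Ppm1a rose (0.26 ± 0.05), but not when library size was the sole scaling (0.01, adjusted p = 0.897).

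Genes reported elsewhere as BMP or TGF-beta targets fell in 13 and rose in 4 of 23 tested, with a median of -0.43. Fibronectin (Fn1) fell to 103 ± 2.47 CPM at 96 h, against 287 ± 9.61 CPM at 0 h (log2 fold change -1.48 ± 0.05, edgeR adjusted p = 2.81e-11). The zinc finger factor Gata2, which is also a marker of the sympathetic lineage, fell (-1.77 ± 0.06). Bhlhe40, a basic helix-loop-helix repressor, rose 4.26-fold (log2 fold change 2.09 ± 0.08, edgeR adjusted p = 1.35e-10) and the CDK inhibitor gene Cdkn1a rose (0.80 ± 0.08). Many of these targets answer to other pathways as well.

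The E proteins that ID proteins bind were lower too. Tcf4 fell to 175 ± 4.45 CPM at 96 h, against 290 ± 5.87 CPM at 0 h (log2 fold change -0.72 ± 0.04, edgeR adjusted p = 9.37e-09). Tcf3 fell (-0.56 ± 0.06) and Tcf12 fell (-0.34 ± 0.06). Of 23 listed helix-loop-helix partners 5 were tested. The 4 lower were these 3 and Hand2 (-0.29 ± 0.04), and the fifth, Tal1, had 0.16 ± 0.10 and did not pass; Hand2 and Tal1 are named after their values were seen. None rose with edgeR, and the count was also 0 with DESeq2, with limma-voom and at an unadjusted edgeR p under 0.05. The proneural genes Neurod1 (1 count at 96 h and 4 at 0 h) and Neurog1 (0 counts) were removed by the filter.

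**Figure D4:**
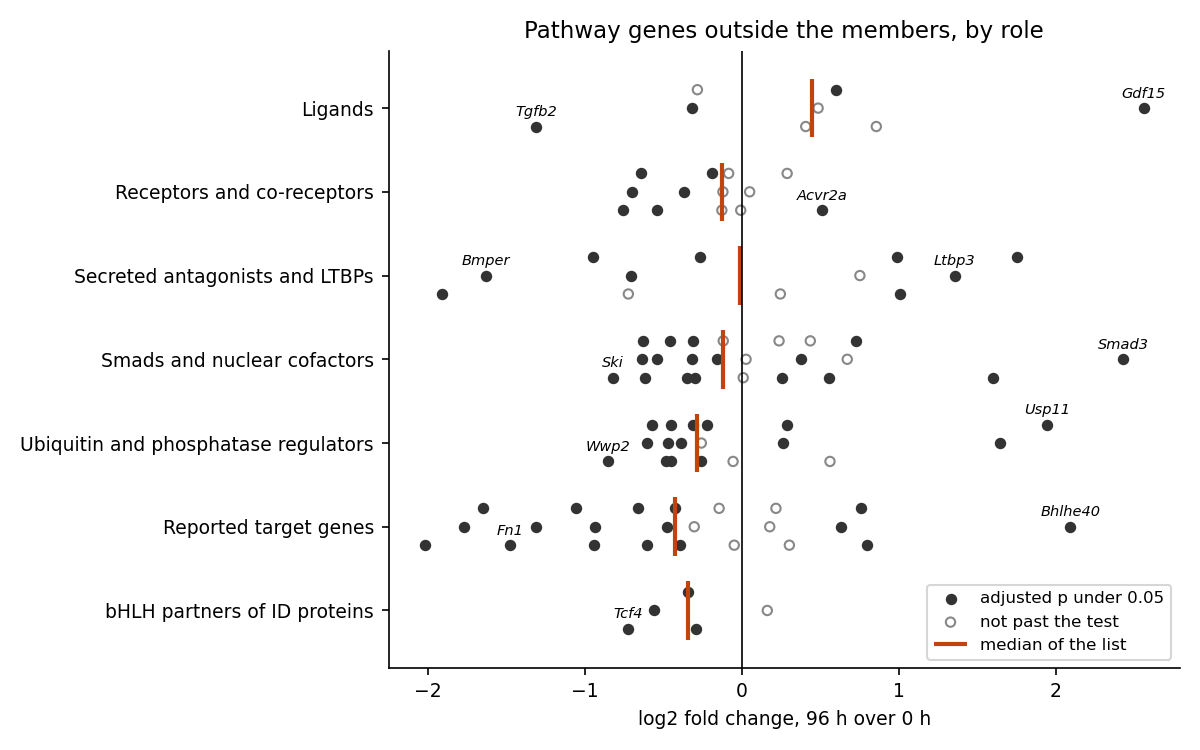
Log2 fold change (96 h over 0 h) of the tested pathway genes in 7 lists; filled points passed an edgeR adjusted p of 0.05, open points did not, and the vertical bar is the median of each list. Smad3 at 2.43 and Gdf15 at 2.56 lie farthest to the right, and the medians run from -0.43 for the target genes to 0.45 for the ligands.

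Among pathway genes, those whose log2 CPM followed the mean of Id1, Id2 and Id3 most closely over the 6 libraries were Tbx2 (Pearson r = 0.997), Acvr2b (0.995) and Fkbp1a (0.995). Tbx2, a T-box repressor that is also among the markers of sympathetic neuroblasts, fell (-1.31 ± 0.06). So did Acvr2b, an activin type II receptor (-0.64 ± 0.09). With 2 groups of libraries such a likeness mostly reflects the difference between the groups, so no test is attached.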

How the data were processed

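The authors' deposited table holds expected counts (estimated counts, which need not be whole) per gene, not normalised, for 3 libraries at 96 h and 3 at 0 h. Per the labels' protocols, ribosomal RNA was depleted and libraries came from a stranded total RNA kit. The submitters' processing notes name build mm39 and the tools Salmon 1.10.1, DESeq2 1.52.0 and FastQC 0.12.1. Neither annotation nor strand setting is stated there. Reads that genes share or that overlap on opposite strands are therefore uncertain.

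Counts were rounded. Genes with too few counts were removed (filterByExpr, 13705 kept), libraries were scaled with TMM, and the states were compared with edgeR 4.0.16 (quasi-likelihood F test, R 4.3.3, Benjamini-Hochberg over all genes tested, threshold 0.05), checked on simulated data. The standard error is the log2 fold change divided by the square root of F. Log2 CPM used a prior count of 2. DESeq2 1.42.0 and limma 3.58.1 (voom) were alternatives, beside other scalings, filters, a threshold of 0.01, a replicate block and leaving out each library. Replicate pairs differed beyond sampling noise (chi-square per degree of freedom 6.37 to 13.5), so each library counts once. The series calls them biological replicates.

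The 10 genes and the pathway lists were chosen with earlier results of these data known. Named pathway genes are the 2 higher and 2 lower genes with the smallest adjusted p in each list. Added to them are Smad1 to Smad5, the E proteins, Bmpr1a, Bmpr1b and Bmpr2, and the 3 genes closest in pattern to Id1, Id2 and Id3. Nog, Neurod1, Neurog1 and the markers named are outside that rule and were chosen after their values were seen. Merged exon lengths and promoter windows are from GRCm38, not the build of the counts, and were matched by symbol.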

Additional observations from a re-analysis of the deposited data

How the results depend on the processing

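Under all 16 other settings 9 of the 10 genes had a negative log2 difference, which is no sign of stability since these values chose them. That of Smurf1 turned negative with library size only (-0.0723), a scaling that moved the median of all genes by -0.25. With library size only, 2409 genes rose and 5849 fell, which puts 29.2% of the calls on the higher side, against 49.9% with TMM and 57.5% with upper-quartile factors. Ligands then had 1 higher gene in place of 2, as with an adjusted p of 0.01 (1), and ubiquitin and phosphatase regulators had 2 higher in place of 4. Without the low-count filter 2 receptors rose in place of 1. The 10 genes held a share of all counts at 96 h that was 0.374 of that at 0 h, and 0.446 after removal of Gm26917 and mitochondrially encoded genes, whose counts leave the total. Skil held the most counts of the 10, with 4821 at 96 h and 10028 at 0 h, so it weighs most in that share. Same-numbered libraries did not deviate together (correlations of -0.0136, 0.0144 and -0.00496), so the titles' numbers were not used as pairs. With the replicate block 3854 genes rose and 3858 fell in place of 3927 and 3942, and 21 pathway genes rose and 50 fell in place of 21 and 52. Leaving out single libraries gave 20 to 25 higher and 49 to 53 lower pathway genes. Depth limits Id4 most, at 21 to 92 counts per library.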

Other observations

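Some pathway genes were too low for the filter and still had every 96 h library above every 0 h library. They were chosen after their values were seen, from 67 pathway genes that the filter removed. How often filtered genes outside the lists show this pattern was not counted. At so few counts a few reads can separate the libraries, so no rise is read from it. Kcp, which encodes a secreted BMP modulator, had 45 counts at 96 h and 9 at 0 h, Sp7, an osteoblast transcription factor gene, had 43 and 22 counts at 96 h and 0 h, Bmp5 had 16 at 96 h and 0 at 0 h, and Foxh1, a Smad partner gene, had 13 at 96 h and 0 at 0 h. Neurog3 also showed this pattern, with 4 counts at 96 h and 1 at 0 h.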
